A study of Homo sapiens with 6 samples.

Results

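Transcript counts of 10 calcium channel and calcium sensor genes were compared between human C4-2 prostate cancer cells and an enzalutamide-resistant line of them. The genes are the transient receptor potential (TRP) channel genes TRPM8, TRPM4, TRPM7, TRPM2, TRPV6 and TRPC1, and the store-operated calcium entry genes ORAI1, ORAI3, STIM1 and STIM2. They were chosen by name as a family, not by a threshold on measured values, but with earlier results of these data known. Each was found by its Ensembl identifier among the 59565 loci of the count table. C4-2 is an androgen-independent line derived from LNCaP, and enzalutamide is an androgen receptor antagonist. The parental group is labelled C4-2 parental and the resistant group C4-2 Enz-R, with 3 RNA-seq libraries each and 150 bp paired-end reads. The labels do not say whether the resistant cells are 1 clone or a pool, whether the drug was present at collection, or whether the libraries of a group came from separate cultures. P-values therefore measure only the spread between these libraries.

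TRP channels are cation channels of the plasma membrane and of internal membranes. TRPM8 opens on cooling and on menthol, and in the prostate it is known as an androgen-responsive gene of luminal epithelial cells. TRPV6 is a calcium-selective channel of absorptive epithelia that has been studied as a marker of prostate cancer. Store-operated entry works in steps: calcium released from the endoplasmic reticulum leaves STIM proteins without bound calcium, and these then cluster beneath the plasma membrane and open ORAI channels there. STIM1 carries most of the response to strong store depletion, whereas STIM2 responds to small falls in store calcium.

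The upstream sequences of TRPM8 and TRPC1, the genes of the set with the lowest fold changes, and of TRPV6, the gene with the highest, are shown because their transcripts moved in opposite directions between the lines. They are the bases before the gene's first listed start in RefSeq (GRCh38.p14), 5′ to 3′ on the gene's own strand, at chr2:233917123-233917372 (plus strand) for TRPM8, chr3:142723784-142724033 (plus strand) for TRPC1 and chr7:142885763-142885995 (minus strand) for TRPV6. The TRPV6 run leaves out the part of its 250 bases that lies in an annotated exon. Capitals mark matches, on either strand, to 3 motifs: the TATA box, searched as the letters TATAAA, the GC box, searched as GGGCGG, and the half-site of the androgen response element, searched as AGAACA.
TRPM8 upstream: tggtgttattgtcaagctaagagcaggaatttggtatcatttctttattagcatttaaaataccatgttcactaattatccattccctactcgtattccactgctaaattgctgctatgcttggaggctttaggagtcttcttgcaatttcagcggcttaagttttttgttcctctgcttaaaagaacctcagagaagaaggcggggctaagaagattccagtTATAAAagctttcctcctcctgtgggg
TRPC1 upstream: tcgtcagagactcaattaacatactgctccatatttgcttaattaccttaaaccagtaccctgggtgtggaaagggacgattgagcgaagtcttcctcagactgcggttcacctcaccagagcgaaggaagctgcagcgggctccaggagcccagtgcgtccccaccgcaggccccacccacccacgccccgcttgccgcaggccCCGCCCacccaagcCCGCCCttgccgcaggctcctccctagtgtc
TRPV6 upstream: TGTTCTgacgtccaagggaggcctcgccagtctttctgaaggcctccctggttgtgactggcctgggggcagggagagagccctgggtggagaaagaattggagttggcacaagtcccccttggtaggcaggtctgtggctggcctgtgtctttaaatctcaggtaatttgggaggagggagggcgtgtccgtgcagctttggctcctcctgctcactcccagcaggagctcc

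The 3 windows differ in base composition. The TRPM8 window was 40.0% G and C, against a median of 58% over 27305 upstream windows of the same length, and 13.2% of those windows were lower. It held 3 CG pairs and a TATAAA that begins 27 bases before the start. TATAAA was found in 11.1% of all windows and, among the 9 of the 10 genes that had a window, in TRPM8 only. The TRPV6 window was 60.4% G and C and held 1 half-site at its far end, 250 bases before the start. Half-sites were found in 12.4% of all windows, and TRPM2 was the other gene of the set with one. The TRPM2 window begins in an annotated exon of TRPM2, and the windows of STIM1 and STIM2 also lie within their annotated genes. These windows are upstream of the listed start but not of the whole gene. The full element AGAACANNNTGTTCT was found in none of the 9 windows and in 1 of all windows (0.00366%). GC boxes were found in 42.3% of all windows and in 5 of the 9, those of TRPM4, TRPM7, TRPC1, STIM1 and STIM2. A match of letters is a description of these windows and was not tested for binding.

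Library totals ran from 15673404 to 28247038 counts. Mitochondrially encoded genes took 8.78% to 11.26% of the counts in parental cells and 14.46% to 15.48% in Enz-R cells. The labelled epithelial origin was seen in the luminal markers, none of which was under 1 CPM (counts of a gene per 1000000 counts) in every library. Their summed level was 8120 to 8682 CPM in the parental and 5064 to 5355 CPM in the Enz-R libraries. Of the basal markers, 3 of 6 (KRT5, KRT14 and KRT15) stayed under 1 CPM in all 6 libraries. So did 4 of 7 fibroblast markers (COL3A1, DCN, LUM and FAP) and 3 of 6 endothelial markers (PECAM1, CDH5 and CLDN5). The same held for 5 of 6 leukocyte markers (PTPRC, CD3E, CD14, MS4A1 and LYZ) and 6 of 7 neuroendocrine markers. The summed basal markers were at 45.8 to 49.9 CPM in the parental and 40.6 to 41.2 CPM in the Enz-R libraries. Most of this was ITGA6, with means of 42.0 and 35.2 CPM. The summed fibroblast markers were at 8.04 to 8.98 CPM in the parental and 7.53 to 8.41 CPM in the Enz-R libraries. The summed endothelial markers were at 10.6 to 12.8 CPM in the parental and 5.12 to 6.54 CPM in the Enz-R libraries. Most of this difference was VWF, with means of 5.21 and 0.651 CPM. KDR had means of 3.38 and 2.39 CPM, and TEK, which was not called, 2.41 and 2.11 CPM. The summed neuroendocrine markers were at 3.34 to 4.15 CPM in the parental and 5.47 to 6.47 CPM in the Enz-R libraries. Most of this was SYP, with means of 2.33 and 5.24 CPM. In these bulk libraries, fewer cells that express a gene and less of its RNA per cell cannot be told apart.

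All 10 genes passed the filter on low counts. By edgeR's quasi-likelihood test at an adjusted p of 0.05, 3 were higher in Enz-R (TRPM4, TRPV6 and STIM2) and 4 were lower (TRPM8, TRPM7, TRPC1 and STIM1). TRPM2, ORAI1 and ORAI3 did not pass the threshold. Among all 19029 genes tested, 32.4% were higher and 32.3% were lower, so 64.8% changed in one direction or the other. The 7 of 10 called here is close to that share. The Enz-R and parental libraries did not overlap for 7 of the 10 genes, against 68.9% of all tested genes. The median log2 fold change of the 10 genes was -0.15, and that of all tested genes was 0.01. What sets the genes apart from each other is the size of the change, which ran from a 106-fold fall in TRPM8 to a 1.93-fold rise in TRPV6. The 10 genes lie on different chromosomes. With mitochondrially encoded genes left out, the same 7 were called.

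**Figure D1:**
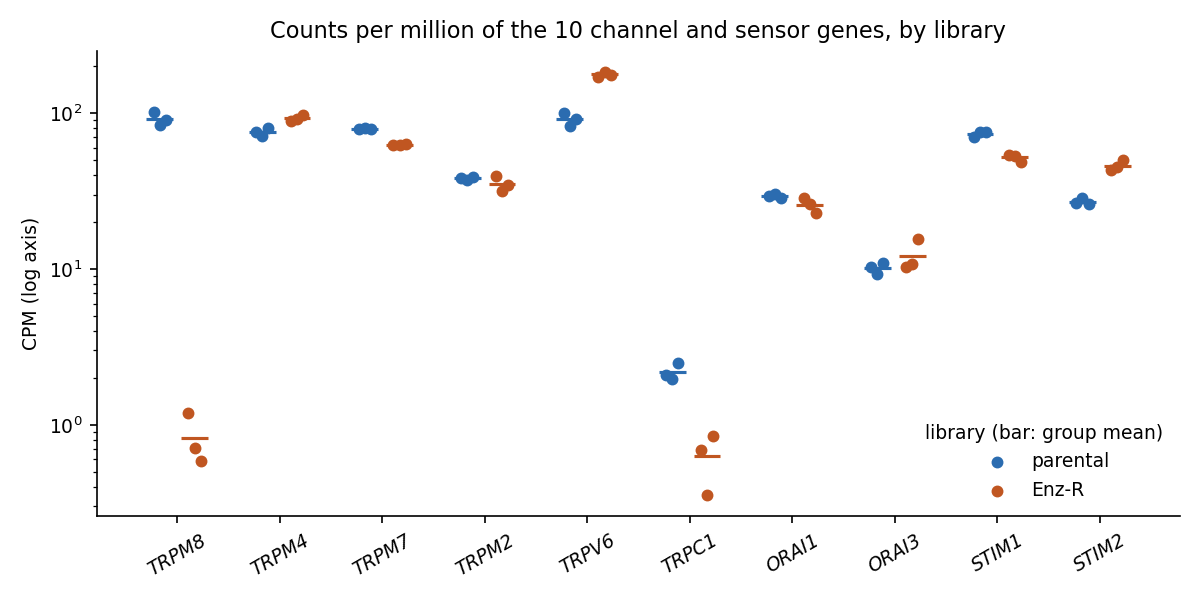
CPM (log axis) of the 10 genes in each of the 3 parental (blue) and 3 Enz-R (orange) libraries, with a bar at the group mean. TRPM8 lies at 83.7 to 101 CPM in parental cells and at 0.582 to 1.19 CPM in Enz-R cells, and TRPV6 lies above its parental values in all Enz-R libraries.

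TRPM8 (ENSG00000144481, GRCh38 chr2:233917398-234019522, plus strand) was at 101, 83.7 and 91.0 CPM in the 3 parental libraries and at 1.19, 0.706 and 0.582 CPM in the 3 Enz-R libraries. These values rest on 2908, 1671 and 1865 counts in parental cells and on 26, 12 and 9 counts in Enz-R cells. Every Enz-R library was far below every parental library, yet none was at 0. The group means were 92.0 ± 8.82 and 0.825 ± 0.320 CPM (SD, n = 3 each), a log2 fold change of -6.73 ± 0.15 (SE, adjusted p = 1.57e-14). It was the 26th largest fall of the 19029 genes tested. Over 14 alternative fits the log2 fold change lay between -7.14 and -6.55. The summed level of the luminal markers fell less than this gene did, and its part in the TRPM8 values was not tested.

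TRPM7 encodes a channel joined to a protein kinase, which passes magnesium, zinc and calcium. Its transcript (ENSG00000092439, chr15:50552473-50686815, minus strand) was at 79.5, 80.5 and 78.8 CPM in parental cells and at 62.5, 62.1 and 63.7 CPM in Enz-R cells. Both groups were tight, and they did not overlap. TRPM7 fell 1.27-fold, with a log2 fold change of -0.34 ± 0.06 (adjusted p = 8.96e-05).

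TRPM4 encodes a channel that calcium opens but that passes sodium and potassium and hardly any calcium. The transcript (ENSG00000130529, chr19:49157741-49211836, plus strand) was at 75.3, 71.02 and 80.2 CPM in the parental and at 89.0, 91.2 and 98.0 CPM in the Enz-R libraries. Every Enz-R library was above every parental one. The rise was 1.23-fold (log2 fold change 0.30 ± 0.07, adjusted p = 0.00103), the smallest of the 7 changes that passed the threshold.

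TRPM2 encodes a calcium-permeable channel opened by ADP-ribose, a product of oxidative stress. Counts of this gene (ENSG00000142185, chr21:44350163-44443081, plus strand) came to 38.2, 37.4 and 39.0 CPM in the parental and 39.6, 31.5 and 34.6 CPM in the Enz-R libraries. The first Enz-R library was the highest of all 6 and the other two were the lowest. The log2 fold change was -0.11 ± 0.08 (adjusted p = 0.229). Without the first Enz-R library it was -0.21 with an adjusted p of 0.0221, so this library decides the call. With total counts as the only scaling it was also -0.21 (adjusted p = 0.0275).

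TRPV6 (ENSG00000165125, chr7:142871203-142885762, minus strand) moved the other way from TRPM8. It was at 99.8, 83.2 and 91.5 CPM in parental cells and at 171, 184 and 177 CPM in Enz-R cells. The groups were far apart. The means were 91.5 ± 8.29 and 177 ± 6.69 CPM (SD, n = 3 each), and the log2 fold change was 0.95 ± 0.07 (adjusted p = 1.66e-08). Across the alternatives it lay between 0.86 and 1.01.

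TRPC1, the gene of a channel subunit that takes part in receptor- and store-linked calcium entry, had the smallest counts of the set in the parental cells. Its transcript (ENSG00000144935, chr3:142724074-142807888, plus strand) was at 2.09, 1.95 and 2.49 CPM in the parental and 0.685, 0.353 and 0.841 CPM in the Enz-R libraries. These are 60, 39 and 51 counts against 15, 6 and 13. The groups did not overlap, and the fall was 3.45-fold, with a log2 fold change of -1.79 ± 0.29 (adjusted p = 6.53e-05). The wider SE goes with the small counts. The gene drops out of the test when at least 50 counts in 3 libraries are required, and it fell in each of the other 13 alternatives, by -2.00 to -1.52.

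**Figure D2:**
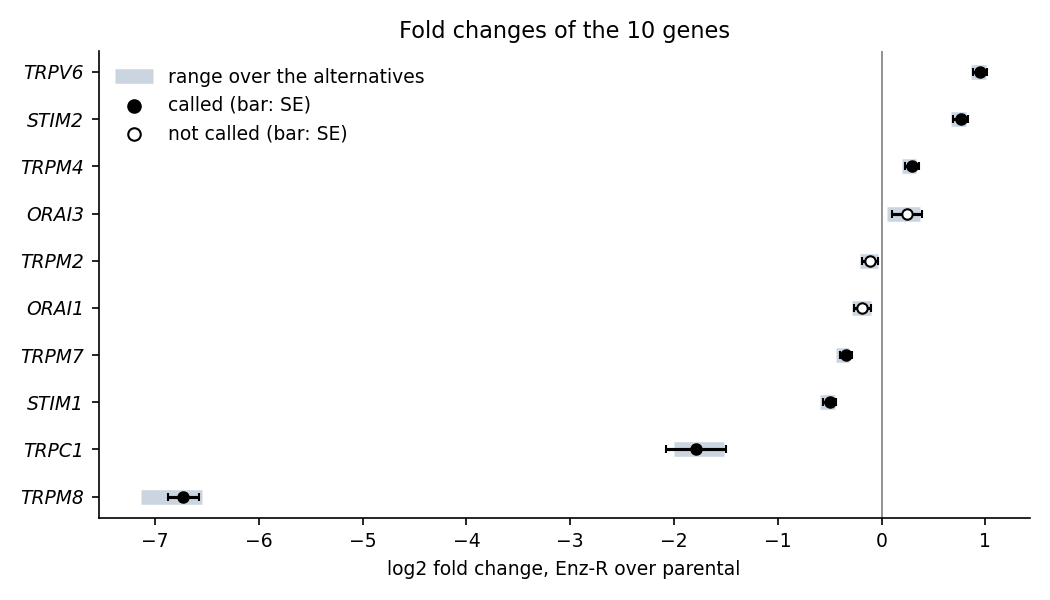
Log2 fold change of Enz-R over parental for each gene (point) with its SE (bar), and the range over the alternative fits (grey). Filled points passed an adjusted p of 0.05. TRPM8 stands at -6.73, and the other 9 genes lie between -1.79 and 0.95.

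The channel genes of store-operated entry moved little. ORAI1 encodes the pore subunit of the calcium release-activated current. It (ENSG00000276045, chr12:121626550-121642677, plus strand) was at 29.4, 30.5 and 28.6 CPM in the parental and at 28.7, 25.9 and 22.9 CPM in the Enz-R libraries. The groups overlapped in 1 Enz-R library, which was just above the lowest parental value. The log2 fold change was -0.18 ± 0.08 (adjusted p = 0.0653). Without the first Enz-R library it was -0.27 (adjusted p = 0.00906), and with total counts as the only scaling it was -0.28 (adjusted p = 0.00628).

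ORAI3 is a paralog that can join ORAI1 in mixed channels. Its counts (ENSG00000175938, chr16:30949066-30956461, plus strand) were 10.3, 9.32 and 10.9 CPM in the parental and 10.2, 10.8 and 15.5 CPM in the Enz-R libraries. Only the third Enz-R library lay above the parental range, and the other two lay within it. The log2 fold change of 0.25 ± 0.15 did not pass the threshold (adjusted p = 0.148). It was 0.05 without the third Enz-R library and 0.37 without the first, and in the latter case it was called (adjusted p = 0.0330). The third member of this family, ORAI2, was at 41.6 ± 0.534 CPM in the parental and 40.8 ± 0.719 CPM in the Enz-R group, with a log2 fold change of -0.03 ± 0.06 (adjusted p = 0.705).

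The 2 calcium sensors of the endoplasmic reticulum changed in opposite directions. STIM1 (ENSG00000167323, chr11:3854527-4093210, plus strand) was at 70.4, 75.3 and 76.0 CPM in the parental and 54.3, 53.3 and 48.9 CPM in the Enz-R libraries. STIM2 (ENSG00000109689, chr4:26857678-27025381, plus strand) was at 26.7, 28.4 and 26.0 CPM in the parental and 43.2, 45.0 and 49.8 CPM in the Enz-R libraries. For neither gene did the groups overlap. STIM1 fell 1.41-fold (log2 fold change -0.50 ± 0.07, adjusted p = 7.64e-06) and STIM2 rose 1.70-fold (0.76 ± 0.07, adjusted p = 2.99e-07). Both passed the threshold in all 14 alternatives, at -0.60 to -0.45 for STIM1 and 0.67 to 0.81 for STIM2.

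Ratios of counts within a library do not depend on how libraries are scaled. The ratio of STIM2 to STIM1 counts was 0.379, 0.378 and 0.342 in parental cells and 0.796, 0.844 and 1.02 in Enz-R cells. Parental libraries thus held fewer STIM2 than STIM1 counts, while the third Enz-R library held about as many of each. The mean ratio went from 0.366 ± 0.0210 to 0.886 ± 0.117 (SD, n = 3 each), 2.41-fold by the mean of logs. The exact two-sided permutation p was 0.1, the smallest that 3 against 3 libraries can give, and 0.2 after Benjamini-Hochberg adjustment over the 2 ratios tested. The ratio of ORAI3 to ORAI1 counts was 0.352, 0.305 and 0.381 in the parental and 0.357, 0.417 and 0.678 in the Enz-R libraries. Here the groups overlapped, and the exact permutation p was 0.2. The difference was 0.43 on the log2 scale. It was 0.16 without the third Enz-R library, 0.51 without the second and 0.63 without the first, with exact permutation p-values of 0.4, 0.2 and 0.1. These ratios compare counts and not molecules, since the genes differ in length.

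**Figure D3:**
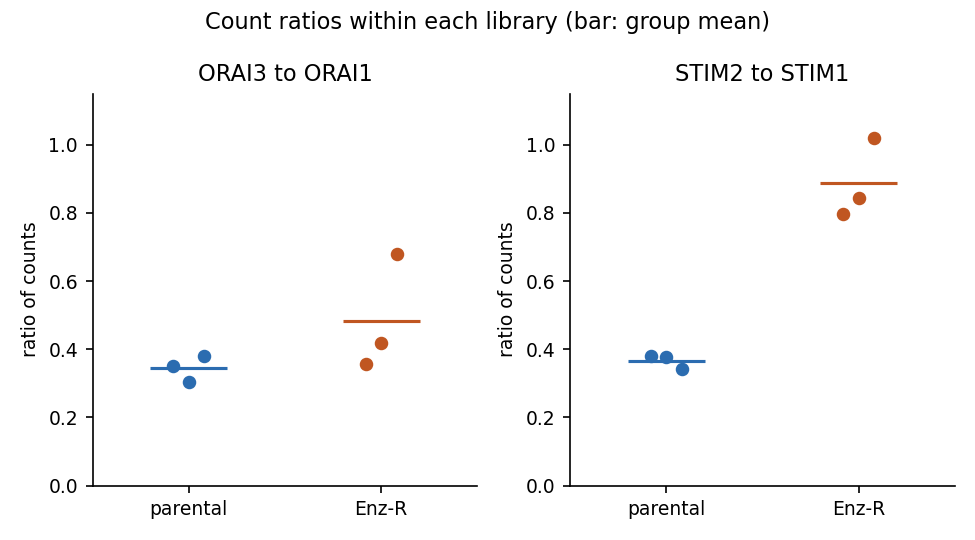
Ratio of counts of ORAI3 to ORAI1 (left) and of STIM2 to STIM1 (right) in each library, with a bar at the group mean. The STIM2 to STIM1 ratio was 0.342 to 0.379 in parental cells and 0.796 to 1.02 in Enz-R cells, and the ORAI3 to ORAI1 ratios of the groups overlap.

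To compare levels between genes, CPM was divided by the exon length of each gene in kilobases. On this scale ORAI1 (13.05 ± 0.421 CPM per kilobase), TRPM8 (11.6 ± 1.12) and TRPM4 (11.4 ± 0.699) led in the parental cells (SD, n = 3). The ranges over libraries of ORAI1 and TRPM8 overlapped, as did those of TRPM8 and TRPM4, so the order of these neighbours is not resolved. STIM1 (10.4), TRPV6 (7.67), TRPM7 (6.42) and TRPM2 (5.70) followed in CPM per kilobase, each without overlap with its neighbours in the order. The range of STIM1 (9.87 to 10.7) did overlap that of TRPM8 (10.6 to 12.8), so the order of those genes is not resolved either. STIM2 (3.91) and ORAI3 (3.85) overlapped, and TRPC1 was last at 0.457 ± 0.0584 CPM per kilobase.

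In Enz-R the order was different. TRPV6 (14.9 ± 0.561 CPM per kilobase) and TRPM4 (14.04 ± 0.706) were first with overlapping ranges, ahead of ORAI1 (11.4 ± 1.28). STIM1 (7.31) and STIM2 (6.66) overlapped with each other. TRPM2 (5.26) overlapped with TRPM7 (5.06), and TRPM7 with ORAI3 (4.61), in CPM per kilobase. TRPC1 (0.131) and TRPM8 (0.104) were last and overlapped. TRPM8 thus went from rank 2 to rank 10 of the set. With the longest transcript as the length, it went from rank 3 to rank 9. The order is not resolved there either: the range of TRPM8 overlapped that of STIM1, next above it in the parental cells, and that of TRPC1, next below it in Enz-R.

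Whether reads could have been shared with other loci was looked at in the annotation (GENCODE 29). The strongest case was ORAI3, which shares 1397 exon bases, 52.9% of its own, with AC135048.1 on the same strand. AC135048.1 had 0 counts in all 6 libraries. How reads from shared bases were counted is not known. The level per kilobase of ORAI3, its rank and its count ratio to ORAI1 depend on that rule and could be too low. Of the distinct 31-base words in the transcripts of ORAI3, 51.0% also occur in another gene's transcripts, the largest share of the set. The share was 10.5% for TRPM7, 8.73% for ORAI1 and at most 4.33% for the other genes, and no 2 genes of the set shared more than 7 words. TRPV6 shares 137 words with its paralog TRPV5.

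Overlapping or antisense transcripts had counts at TRPM2, STIM1, STIM2 and TRPM8, and 1 count at TRPV6. The labels do not describe the kit as strand-specific, so reads of opposite strands cannot be told apart where exons overlap. TRPM2-AS, which shares no exon base with TRPM2, had 477, 314 and 301 counts in the parental and 529, 401 and 416 in the Enz-R libraries and rose by 0.66 on the log2 scale (adjusted p = 9.34e-06), while TRPM2 itself did not pass. STIM2-AS1, also without a shared exon base, had 13, 2 and 2 counts in the parental and 34, 19 and 9 in the Enz-R libraries. These came to 17 and 62 counts, and most of the 17 were in the first parental library. The log2 fold change was 2.19 (adjusted p = 0.00134), in the direction of STIM2. AC090587.2, which shares 43 exon bases with STIM1, had 53 counts in the parental and 10 in the Enz-R group (-2.01, adjusted p = 0.000807). AC005538.1, opposite TRPM8, had 7 counts in the parental and 0 in the Enz-R group and did not pass the filter on low counts.

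The neighbours of each gene, 5 tested protein-coding genes on each side, were compared with the gene itself. Over all tested genes 64.8% were called, 32.4% higher and 32.3% lower. Around TRPM8, 1 neighbour was higher, 6 were lower and the median log2 fold change was -0.27, against -6.73 for TRPM8. The lowest of them was ACKR3, which encodes an atypical chemokine receptor, at -2.04 ± 0.09 (adjusted p = 3.29e-11). SH3BP4 was higher (0.93 ± 0.06, adjusted p = 3.91e-09). Around TRPV6 the median was 0.41, with a range from -3.96 to 3.36. Around ORAI1, 7 of 10 neighbours were called, close to the share of all genes, and the 7 were lower, with a median of -0.46, among them the kinase gene CAMKK2 (-1.54 ± 0.06) and the ATP-gated channel gene P2RX4 (-0.45 ± 0.07). Around STIM1, 5 were lower and 1 higher (median -0.39). The medians around the other 6 genes lay between -0.20 (STIM2) and 0.06 (TRPM4).

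**Figure D4:**
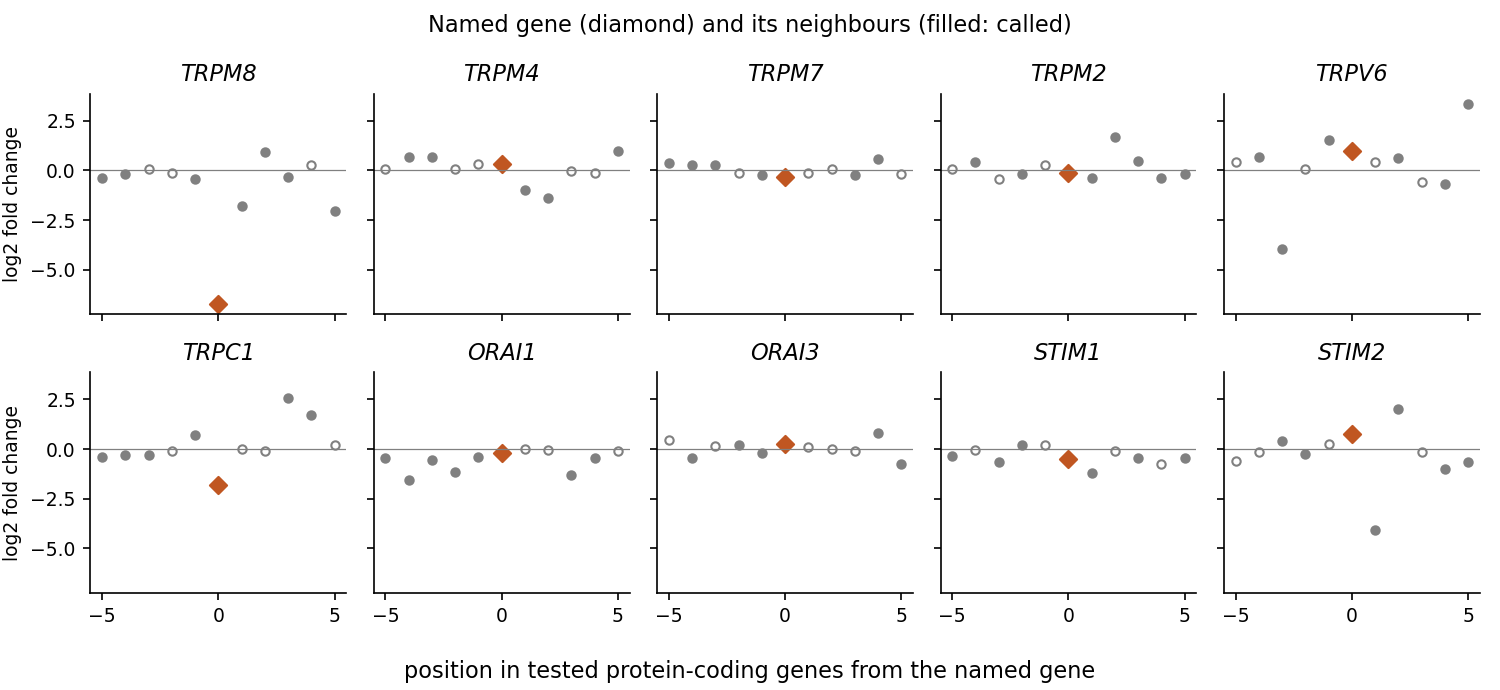
Log2 fold change of each of the 10 genes (diamond) and of the 5 nearest tested protein-coding genes on each side (circles, filled where called), by position in genes. TRPM8 at -6.73 lies below all of its neighbours, the lowest of which is at -2.04.

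Log2 CPM was taken here with a prior count of 2, which shrinks changes near 0 CPM. The genes whose levels over the 6 libraries were most like those of TRPM8 were found by the root mean square difference of centred log2 CPM, among 11198 protein-coding genes. They were the potassium channel gene KCNJ3 (difference 0.349), the sialyltransferase gene ST6GALNAC1 (0.379), the adhesion receptor gene ADGRL2 (0.390), PASD1 (0.446) and the collagen gene COL12A1 (0.556), in log2 units. KCNJ3 went from 7.79 ± 0.409 to 0.0305 ± 0.0527 CPM and ST6GALNAC1 from 59.9 ± 4.24 to 0.717 ± 0.291 CPM (SD, n = 3 each). The Enz-R level of KCNJ3 was thus near 0. Its fitted log2 fold change, -7.51 ± 0.37, was further from the -6.73 of TRPM8 than that of ADGRL2 (-6.87 ± 0.22). COL12A1 went from 174 ± 2.82 to 2.83 ± 0.390 CPM. The 6 libraries form 2 groups, so likeness here is mostly likeness in the size of the fall on this shrunken scale: 784 of the genes had a Pearson r of at least 0.99 with TRPM8.

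The list counts that follow stand beside 32.4% higher and 32.3% lower among all tested genes. Of 21 other TRP family genes, 7 had enough counts to be tested, of which 4 were higher in Enz-R, 2 were lower and 1 was not called (median log2 fold change 0.43). MCOLN2 (0.81 ± 0.13, adjusted p = 7.88e-05) and MCOLN1 (0.58 ± 0.09, adjusted p = 4.60e-05), which encode channels of endosomes and lysosomes, rose. TRPM5, a relative of TRPM4 known from taste cells, fell from 5.69 ± 0.767 to 0.861 ± 0.121 CPM (-2.74 ± 0.21, adjusted p = 2.48e-08). PKD2, the polycystin channel gene, fell by 0.49 ± 0.10 on the log2 scale.

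Proteins that act with these channels were listed separately. Of 8 tested partners of store-operated entry, 1 was higher, 3 were lower and 4 were not called (median -0.11). SARAF, which encodes an inhibitor of STIM1-driven entry, fell from 150 ± 3.26 to 106 ± 5.85 CPM (-0.49 ± 0.06, adjusted p = 4.28e-06). ESYT1, a tether between the endoplasmic reticulum and the plasma membrane, fell from 156 ± 11.0 to 84.8 ± 7.13 CPM (-0.88 ± 0.07). SLC35G1 rose (0.51 ± 0.14, adjusted p = 0.00427).

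Among 7 tested partners of TRP channels, 2 were higher, 3 were lower and 2 were not called (median -0.20). TCAF1, whose product binds TRPM8 and takes it to the cell surface, rose from 55.2 ± 2.81 to 74.5 ± 10.6 CPM (0.43 ± 0.09, adjusted p = 0.000455), while TRPM8 itself fell. S100A10, known as an adaptor of TRPV5 and TRPV6, fell from 9.32 ± 1.67 to 2.35 ± 0.578 CPM (-1.97 ± 0.19, adjusted p = 2.99e-07), while TRPV6 rose. BSPRY, another protein that binds TRPV5, fell by 0.62 ± 0.10 on the log2 scale.

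Release of stored calcium runs through phospholipase C, which makes inositol trisphosphate, and its receptors. Of 16 tested genes of this list, 6 were higher, 5 were lower and 5 were not called (median 0.11). ITPR3, an inositol trisphosphate receptor gene, fell from 165 ± 4.13 to 80.8 ± 7.77 CPM (-1.03 ± 0.07, adjusted p = 6.71e-09). ITPR2 rose from 4.78 ± 0.716 to 7.76 ± 0.247 CPM (0.71 ± 0.14, adjusted p = 0.000520). Of the phospholipase genes, PLCB4 fell (-1.21 ± 0.07) and PLCD3 rose (0.74 ± 0.08).

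All 10 tested genes of calcium pumps and exchangers passed the threshold, 3 higher and 7 lower (median -0.28). Among all tested genes 64.8% passed. A further 8 of the 18 listed pump and exchanger genes had too few counts to be tested. Pumps of the plasma membrane export calcium, and those of the endoplasmic reticulum refill the store. ATP2B1, a plasma membrane pump gene, rose from 91.0 ± 2.98 to 340 ± 22.2 CPM (1.90 ± 0.07, adjusted p = 3.62e-12), and ATP2B4 rose from 14.8 ± 0.988 to 41.9 ± 1.80 CPM (a 2.83-fold rise). ATP2A2, the main endoplasmic reticulum pump gene, fell from 423 ± 17.3 to 184 ± 18.5 CPM (-1.20 ± 0.07, adjusted p = 2.80e-09). ATP2A3, of the same pump family, fell from 5.61 ± 0.256 to 1.82 ± 0.440 CPM (-1.61 ± 0.18), whereas ATP2A1, the other pump gene of that family, rose by 0.36 ± 0.11 on the log2 scale (adjusted p = 0.00808). ATP2A1 lost its call with total counts as the only scaling (0.26, adjusted p = 0.0504), and it was named after its values were seen.

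Of 11 tested genes of mitochondrial calcium uptake, 4 were higher, 1 was lower and 6 were not called (median 0.05). SMDT1, a subunit of the uniporter, rose (0.48 ± 0.07), as did the outer membrane channel gene VDAC2 (0.37 ± 0.06), and LETM1 fell (-0.37 ± 0.07). Among 19 tested voltage-gated and other calcium channel genes, 10 were higher, 4 were lower and 5 were not called (median 0.26). The mechanically opened channel gene PIEZO1 fell from 555 ± 14.4 to 264 ± 8.99 CPM (-1.07 ± 0.06, adjusted p = 1.21e-09) and the pore subunit gene CACNA1A fell (-1.75 ± 0.13). The auxiliary subunit genes CACNB1 (1.03 ± 0.08) and CACNB2 (0.85 ± 0.12) rose.

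Downstream of calcium, 20 genes of calmodulin, calmodulin-dependent kinases, calcineurin and NFAT were tested, of which 4 were higher, 8 were lower and 8 were not called (median -0.05). CAMKK2, a kinase gene that is also a neighbour of ORAI1, fell from 207 ± 5.51 to 71.2 ± 2.81 CPM (-1.54 ± 0.06, adjusted p = 1.56e-11), while its paralog CAMKK1 rose from 59.3 ± 4.00 to 93.0 ± 1.76 CPM (0.65 ± 0.06, adjusted p = 4.21e-07). NFATC3, a transcription factor gene of this pathway, fell (-1.25 ± 0.11), and CAMK2D rose (0.88 ± 0.11). Over the 8 lists together, 67 of 98 tested genes were called, 34 higher and 33 lower, which is 68.4% against the 64.8% of all genes tested. Their median log2 fold change was 0.02.

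**Figure D5:**
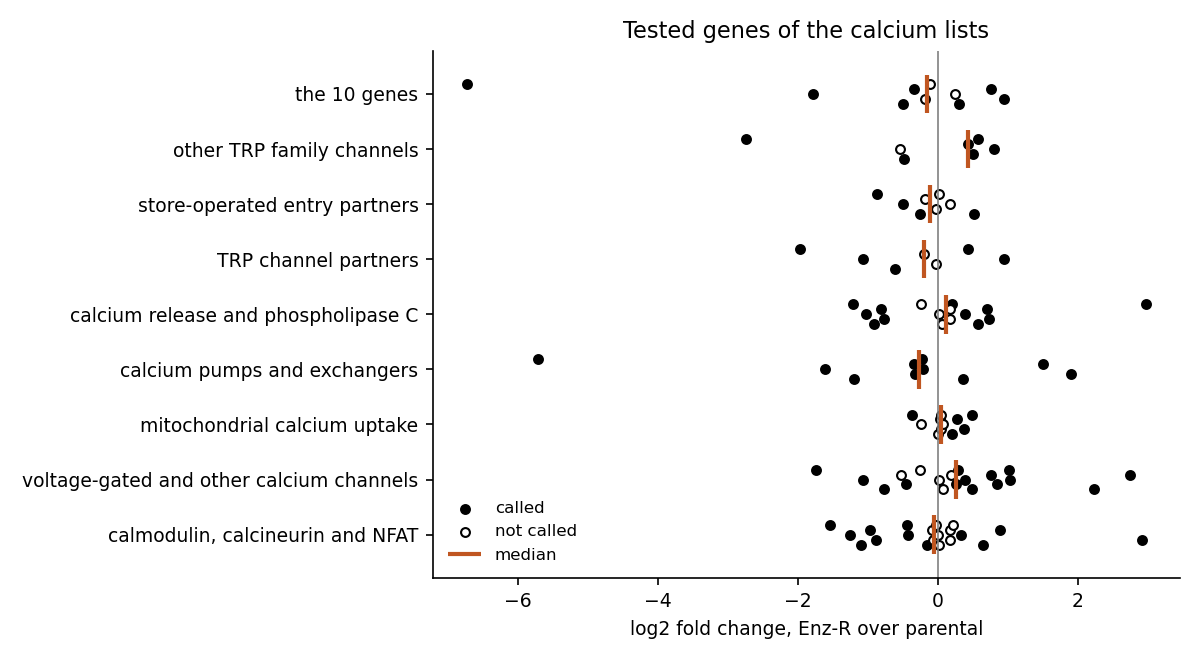
Log2 fold change of Enz-R over parental for every tested gene of the set and of the 8 calcium lists (filled: adjusted p under 0.05 by edgeR), with the list median (orange bar). The list medians lie between -0.28 and 0.43, and TRPM8 at -6.73 is the lowest point.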

How the data were processed

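RNA-seq libraries of 3 parental and 3 Enz-R samples were grouped by their labels. Per the labels' protocols, total RNA was extracted with TRIzol and libraries were made with a NEBNext Ultra RNA kit. Per the submitters' processing notes, reads were aligned with HISAT2 to GRCh38. No source used here gives its version, or how and with which annotation and strand setting reads were counted. The table deposited by the authors holds unscaled whole-number counts for each gene in each library.

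The comparison used edgeR's quasi-likelihood test (version 4.0.16, under R 4.3.3) after filterByExpr and TMM scaling, without covariates, and with Benjamini-Hochberg adjustment over 19029 tested genes and a threshold of 0.05. The SE of a log2 fold change is its size divided by the square root of F. CPM used TMM-scaled totals. The common biological coefficient of variation was 7.20%, and replicate pairs differed by a chi-square per degree of freedom of 4.30 to 10.1, more than counting error. Positions came from GENCODE 29, to which all 58676 Ensembl identifiers matched, and upstream sequences from RefSeq, which were matched by symbol for 9 of the 10 genes. Ratios were tested by exact permutation over libraries.

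From each calcium list, up to 2 risers and 2 fallers are named, those with the largest changes among called genes whose groups did not overlap and whose higher mean reached 5 CPM. ATP2A1 falls outside this rule and was added after its values were seen. ORAI2 also falls outside it and is given as the third ORAI gene, and P2RX4 is named as a neighbour of ORAI1. The closing sections name further list genes outside the rule. For TRPM8, the 5 most alike genes with at least 5 CPM are named. The genes and lists were chosen with earlier results of these data known. Other settings tried were a block for the replicate number, omission of each library, size factors from DESeq2, plain total counts, omission of mitochondrially encoded genes, every gene with a count, a minimum of 50 counts in 3 libraries, and the tests of DESeq2 1.42.0 and of limma-voom (limma 3.58.1). The fit was also run on simulated counts in which few genes changed. Since 64.8% of genes were called in the real data, that run cannot test the scaling used here. Further steps ran in Python 3.11.15 (pandas 2.3.3, numpy 2.4.6, scipy 1.17.1), and figures were drawn with matplotlib 3.10.9. One item that the rules above cover is not reported here.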

Additional observations from a re-analysis of the deposited data

How the results depend on the processing

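Of 139 values of the 10 genes under the alternatives, 134 kept their direction and their side of the threshold, and so did all 406 values of the 29 list genes named by rule over 14 alternatives. The exceptions among the 10 genes were gains of a call. With total counts and no TMM factors, which moved the median of all genes from 0.01 to -0.08, TRPM2 was -0.21 (adjusted p = 0.0275) and ORAI1 was -0.28 (adjusted p = 0.00628), so that 6 of the 10 genes were lower. Leaving out 1 library at a time, TRPM2 ran from -0.21 to -0.034, ORAI1 from -0.27 to -0.10 and ORAI3 from 0.051 to 0.37, and each was called only without the first Enz-R library; 6 genes were then lower and 4 higher. The cause was not tested. Of 224 list counts, 220 stayed within 1.5 times. The count of store-operated entry partners that were higher was 2 in place of 1 with at least 50 counts in 3 libraries, and 1 to 2 with a library left out, since CRACR2B (0.17 ± 0.08, adjusted p = 0.0862) was then called at 0.21 (adjusted p = 0.0487) and, without the first Enz-R library, at 0.26 (adjusted p = 0.00484). TRP channel partners that were higher numbered 1 in place of 2 with at least 50 counts, because TCAF2 was then not tested. Genes of mitochondrial calcium uptake that were lower numbered 2 in place of 1 with total counts, where MCUB was called (-0.33, adjusted p = 0.0224) and MCUR1 lost its call. ATP2A1 lost its call under the same scaling (0.26, adjusted p = 0.0504), which left 2 pump genes higher in place of 3. By longest transcript in place of exon length, TRPM8 ranked 3 in place of 2 in the parental cells. With mitochondrially encoded genes left out, the same 7 of the 10 genes were called.

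The replicate numbers did not pair the libraries: same-numbered deviations correlated at 0.049, -0.008 and 0.011, and not every library correlated best with its own number. A fit with the replicate block called 12337 genes in place of 12323 and left 3 of the 10 genes higher and 4 lower. Depth limits TRPC1 and the Enz-R values of TRPM8 most, with 34 and 47 counts over 3 Enz-R libraries.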

Other observations

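Several scarce calcium genes changed by a large factor but lay under the 5 CPM needed to be named above, and were chosen here after their values were seen. CAMK1D, a calmodulin-dependent kinase gene, had 33 counts in the 3 parental libraries together and 197 in the 3 Enz-R libraries (log2 fold change 2.92 ± 0.25, adjusted p = 9.45e-08 by edgeR). PLCB2, a phospholipase C gene known from blood cells, had 11 and 70 counts (2.97 ± 0.37, adjusted p = 4.61e-06), and the ATP-gated channel gene P2RX5 had 13 and 71 counts (2.74 ± 0.48, adjusted p = 0.000126). Neither PLCB2 nor P2RX5 was tested with at least 50 counts in 3 libraries. Over the other 13 alternatives both were called, PLCB2 at 2.84 to 3.10 and P2RX5 at 2.35 to 3.88. SLC24A3, an exchanger gene of the pump and exchanger list, had 88 counts over the parental libraries and 1 over the Enz-R libraries.

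The 3 ryanodine receptor genes, which encode calcium release channels of the endoplasmic reticulum, were also picked after their values were seen, from a list in which 6 genes were higher and 5 lower, among them ITPR1 (0.39 ± 0.10) and ITPR2 (0.71 ± 0.14), both higher. The 3 were lower in Enz-R, as were 32.3% of all tested genes. RYR2 went from 7.15 to 4.07 CPM (-0.81 ± 0.15, adjusted p = 0.000250), RYR3 from 4.56 to 2.43 CPM (-0.91 ± 0.18, adjusted p = 0.000353) and RYR1 from 2.00 to 1.19 CPM (-0.77 ± 0.24, adjusted p = 0.0119). RYR1 lost its call by DESeq2 (-0.78, adjusted p = 0.0687) and without the first Enz-R library (-0.55, adjusted p = 0.0729), and was not tested with at least 50 counts in 3 libraries.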
